A study of Homo sapiens with 6 samples.

Results

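Transcript levels of the tetraspanin genes were compared between a CD38 knockout clone (CD38 KO) and wild-type cells (WT) of MM.1S, a cell line from a human plasma cell cancer, multiple myeloma. The members were the protein-coding genes of the count table whose symbol starts with TSPAN and a number, together with CD9, CD37, CD53, CD63, CD81, CD82 and CD151, which made 29 genes of 60671 in all and of 19966 that code for protein. Each group had 3 libraries of total RNA. According to the study's design text, the knockout was made with CRISPR/Cas9 and is 1 expanded clone, so that its differences from WT are those of 1 clone. Cells of both groups carried the green fluorescent protein GFP and the luciferase CBR, were grown in the same medium and were sorted as live cells, CD38-negative cells from the clone and CD38-positive cells from the WT line, before the replicates were prepared from each sorted population. The p-values below therefore measure the spread between preparations of the same sorted cells.

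Tetraspanins are small proteins that cross the membrane several times and carry a large and a small extracellular loop. They bind each other and partners such as integrins, immunoglobulin-superfamily proteins and proteases, and so gather them in patches of the plasma membrane or of endosomes. CD37 and CD53 are found mainly on leukocytes, and CD37 is an antibody target in B-cell lymphoma. CD9, CD63 and CD81 are the usual markers of extracellular vesicles, and the members of the TspanC8 subgroup escort the protease ADAM10 to the cell surface.

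Total counts ranged from 61515519 to 65709440 in the CD38 KO libraries and from 63606445 to 72335496 in the WT libraries. CD38 stood at 51, 80 and 48 counts in the CD38 KO libraries, against 3148, 2678 and 2545 in the WT libraries, in the direction of both the genotype label and the sort. Of 20120 genes tested with edgeR's quasi-likelihood test, 8934 (44.4%) had an adjusted p under 0.05 and are called changed below, 4592 (22.8%) of them higher and 4342 (21.6%) lower in CD38 KO, and the groups did not overlap for 52.5%. Scaled by library size alone, the split was 3632 genes higher and 5570 lower. The labels call the cells B lymphoblasts. The 7 plasma cell markers summed to 8526 to 8547 CPM in CD38 KO and 6404 to 6410 CPM in WT, where CPM is the count per 1000000 after TMM scaling, and 5 of them rose and 1 fell. Of the B cell markers, MS4A1, PAX5 and CD22 had means of at most 0.0597 CPM in CD38 KO and 0.0202 CPM in WT, and CD79A rose to 0.344 ± 0.128 CPM in CD38 KO, against 0.114 ± 0.0639 CPM in WT (SD, n = 3). CD79A had 20, 14 and 30 counts in CD38 KO and 4, 12 and 7 in WT, and passed the filter on low counts only through CD38 KO. The 5 myeloid and the 5 platelet or erythroid markers summed to at most 1.30 and 0.516 CPM in any library, with PF4 at 0 counts in all. The 5 T or NK cell markers summed to 59.5 to 63.9 CPM in CD38 KO and 62.6 to 69.7 CPM in WT, most of it NCAM1, which fell, while CD3E rose to 4.83 ± 0.359 CPM in CD38 KO, against 0.979 ± 0.0760 CPM in WT (SD, n = 3). The 5 stromal markers summed to 5.38 to 6.40 CPM in CD38 KO and 3.49 to 4.55 CPM in WT, mostly PDGFRB, which rose. The part of these differences in the results on tetraspanins was not tested.

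MM.1S cells expressed a limited set of tetraspanins, and members changed in both directions in the clone. Of the 29 members, 16 had a mean of at least 1 CPM over the 6 libraries and 22 passed the filter on low counts. Of the 22, 9 were called higher, 6 lower and 7 were not called. The share called, 68.2%, stood beside 44.4% of all genes tested and, for the 16 members at 1 CPM or more, 75.0% beside 61.0% of the 11259 protein-coding genes at that level. In 15 of the 22 (68.2%) the groups did not overlap, near the 62.9% of protein-coding genes tested and beside 52.5% of all genes. TSPAN9, TSPAN15 and TSPAN19 passed the filter only through the group where they were high, and since they are counted in these shares, the shares are given as a description. Of the members not called, TSPAN1 reached the filter's cut in every library of CD38 KO alone and CD81 in every library of WT alone. The median log2 fold change was 0.10 over the 22 members and 0.00 over all tested genes, and the median size among called genes was 0.79 for tetraspanins and 0.53 for all. In bulk RNA, fewer cells that express a gene and less RNA per cell cannot be told apart.

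**Figure D1:**
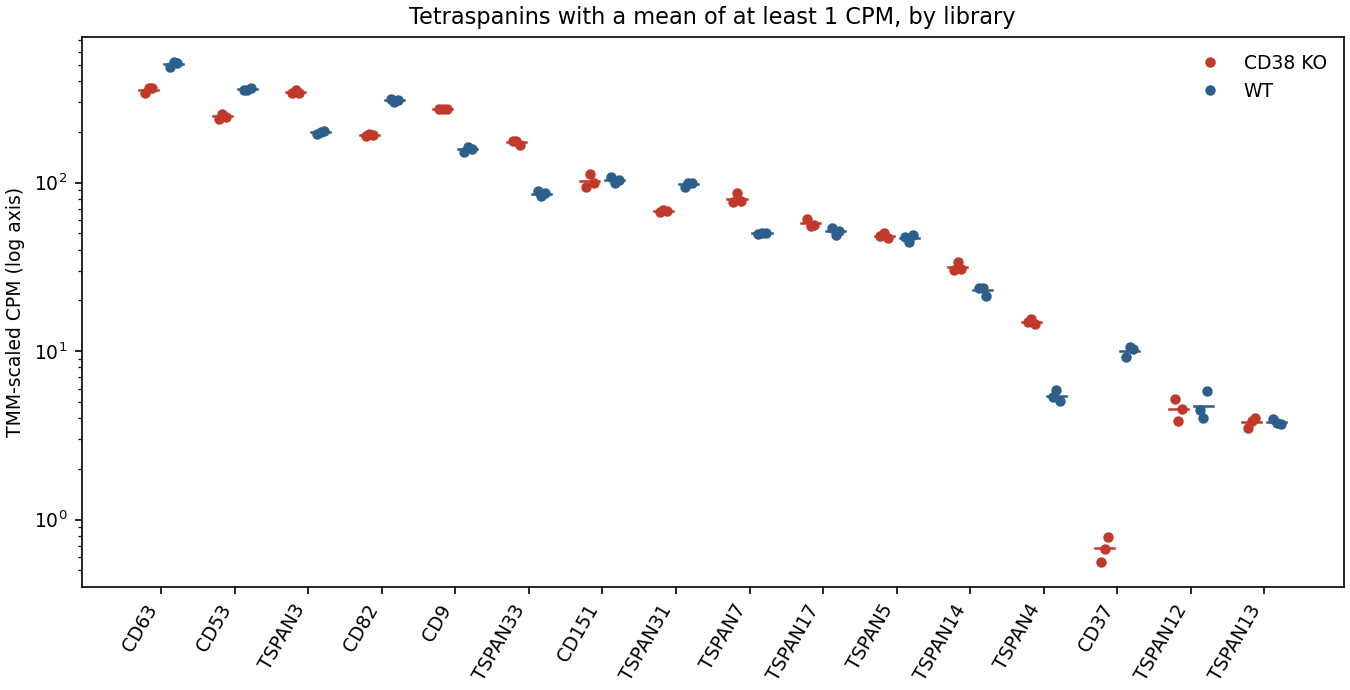
TMM-scaled CPM on a log axis of the 16 tetraspanins with a mean of at least 1 CPM, with a point for each of the 3 CD38 KO and 3 WT libraries and a bar at each group mean. The groups do not overlap for 12 of the 16 (75.0%, beside 67.2% of protein-coding genes at that level), and CD37 is farthest apart, at 0.563 to 0.791 CPM in CD38 KO and 9.30 to 10.6 CPM in WT.

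Levels of different genes were compared per kb of exon, using exon lengths of GENCODE 29. CD63, the tetraspanin of late endosomes and lysosomes, had the highest level in both groups, 136 ± 5.68 CPM per kb in CD38 KO and 193 ± 8.08 in WT (SD, n = 3). The leukocyte tetraspanin CD53 was next, at 115 ± 3.99 and 167 ± 2.37 CPM per kb in CD38 KO and WT. In CD38 KO the order went on with CD9 (65.9), TSPAN33 (63.3), CD82 (47.5) and TSPAN3 (40.6 CPM per kb). In WT it was CD82 (76.0), CD9 (37.8), TSPAN33 (31.4), CD151 (26.4) and TSPAN3 (23.4 CPM per kb). CD9 and TSPAN33 in CD38 KO lay apart by little more than the TSPAN33 SD of 2.01 CPM per kb, whereas CD82 and CD9 in WT, with SDs of 1.24 and 1.21, were far apart. CD151 at 26.0 ± 2.51 and TSPAN7 at 25.9 ± 1.68 CPM per kb in CD38 KO did not differ beyond their spread. Per kb, CD63 and CD53 stood above 98.9% and 98.6% of protein-coding genes in CD38 KO and above 99.3% and 99.2% in WT. The order depends on the exon lengths used. With no length correction CD63 was still highest in both groups, at 357 CPM in CD38 KO and 508 CPM in WT. TSPAN3, at 345 CPM in CD38 KO, then stood above CD9 (274.5 CPM) and CD53 (248 CPM). In WT, TSPAN3 at 199 CPM stood below CD53 (359 CPM) and CD82 (308 CPM) and above CD9 (158 CPM).

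The windows of TSPAN33 and TSPAN4, which had the largest rises among members at 1 CPM or more, and of CD63 and CD53, the most abundant members, which fell, are shown to set the CpG content at their starts beside the direction of the call. They are RefSeq sequences of build GRCh38.p14, 250 bases before to 50 after the gene start in RefSeq, read 5′ to 3′ on the gene's strand. That start can differ from the outermost start in GENCODE 29 given below: the CD63 window lies inside the GENCODE gene, and the TSPAN33 window ends before the GENCODE start. Capitals mark each CG dinucleotide. TSPAN33 and TSPAN4 lie on the plus strand at chr7:129144457-129144756 and chr11:842602-842901, CD63 on the minus strand at chr12:55728960-55729259 and CD53 on the plus strand at chr1:110870960-110871259.
TSPAN33: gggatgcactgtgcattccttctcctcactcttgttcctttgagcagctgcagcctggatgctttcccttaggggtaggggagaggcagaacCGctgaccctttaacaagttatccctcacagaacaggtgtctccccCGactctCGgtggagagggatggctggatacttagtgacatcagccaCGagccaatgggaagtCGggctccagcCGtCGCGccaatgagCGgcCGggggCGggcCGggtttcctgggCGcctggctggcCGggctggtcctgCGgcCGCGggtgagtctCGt
TSPAN4: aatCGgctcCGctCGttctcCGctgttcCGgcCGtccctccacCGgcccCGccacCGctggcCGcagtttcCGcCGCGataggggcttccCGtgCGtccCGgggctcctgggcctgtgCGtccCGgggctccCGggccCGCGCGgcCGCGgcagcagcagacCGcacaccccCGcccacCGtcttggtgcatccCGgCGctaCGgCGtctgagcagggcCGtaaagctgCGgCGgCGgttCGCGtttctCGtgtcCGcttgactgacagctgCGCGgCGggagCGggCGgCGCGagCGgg
CD63: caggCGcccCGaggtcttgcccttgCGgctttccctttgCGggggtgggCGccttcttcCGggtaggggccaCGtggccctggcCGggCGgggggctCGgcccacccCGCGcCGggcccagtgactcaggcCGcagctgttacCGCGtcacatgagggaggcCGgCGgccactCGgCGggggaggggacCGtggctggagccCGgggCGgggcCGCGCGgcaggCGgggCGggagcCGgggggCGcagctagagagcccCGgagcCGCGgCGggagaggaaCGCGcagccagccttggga
CD53: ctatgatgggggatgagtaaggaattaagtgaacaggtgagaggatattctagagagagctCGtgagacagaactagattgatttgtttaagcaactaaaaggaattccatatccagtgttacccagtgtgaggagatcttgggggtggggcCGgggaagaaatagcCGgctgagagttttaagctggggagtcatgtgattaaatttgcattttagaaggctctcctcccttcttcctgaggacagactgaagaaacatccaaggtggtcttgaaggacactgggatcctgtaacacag
The windows hold 18, 47, 36 and 3 CG dinucleotides in this order. A window was found for 21 of the 29 members, and none for CD37, CD81, CD151, TSPAN3, TSPAN7, TSPAN9, TSPAN18 or TSPAN32. The 6 members called higher among them held 12 to 53 CG dinucleotides and the 5 called lower 3 to 36, so the ranges overlapped (CD9, which rose, had 12), beside a median of 14 over all 35114 promoter windows. The GC box letters GGGCGG, searched on both strands, were in 12 of the 21 windows and in 45.0% of all windows. The E-box letters CACGTG were in 2 of the 21, those of CD63 and TSPAN6, and in 7.26% of all. The TATA box letters TATAAA were in 0 of the 21 and in 11.5% of all, and the letters GAGGAA, a core to which ETS factors such as PU.1 bind, were in 3, those of CD63, CD9 and TSPAN14, and in 27.9% of all. These counts describe letters in the windows and not binding.

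Both leukocyte-restricted members that passed the filter fell in CD38 KO, CD37 to 6.73% and CD53 to 68.9% of the WT mean, where 21.6% of all tested genes and 27.97% of protein-coding ones fell. CD37 (ENSG00000104894; chromosome 19, 49335171 to 49343335 in GENCODE 29, build GRCh38), which on B cells carries both survival and death signals through its cytoplasmic tails, was seen with 36, 40 and 49 counts in the CD38 KO libraries, against 688, 700 and 674 in the WT libraries. These are 0.563, 0.672 and 0.791 CPM in CD38 KO and 9.30, 10.6 and 10.3 CPM in WT. Every CD38 KO library was far below every WT library, and the CD38 KO mean of 0.676 ± 0.114 CPM stood below the WT mean of 10.04 ± 0.663 CPM (SD, n = 3). The log2 fold change was -3.89 ± 0.162 SE (edgeR adjusted p = 3.80e-14), the largest in size among members at 1 CPM or more. CD53 (ENSG00000143119; chromosome 1, 110871188 to 110899928) stood at 240.3, 257 and 246 CPM in CD38 KO and at 358, 356 and 365 CPM in WT. The groups did not overlap, and its log2 fold change was -0.54 ± 0.0389 SE (edgeR adjusted p = 2.88e-10). TSPAN32, the third gene of this kind, had 8, 6 and 32 counts in CD38 KO and 25, 7 and 7 in WT and did not pass the filter. Some exon sequence of CD37 overlaps genes of the opposite strand, TEAD2 and AC011450.1, which held at most 3 and 10 counts in any library.

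Among the widely expressed members with CD names, CD9 rose, CD82 fell, CD151 was not called and CD81 was close to absent. CD9 (chromosome 12, 6199715 to 6238271), needed on the mouse egg for fusion with sperm, was at 274, 275 and 275 CPM in CD38 KO and 152, 162 and 159 CPM in WT (log2 fold change 0.80 ± 0.0395 SE; edgeR adjusted p = 6.16e-13). CD82 (chromosome 11, 44564427 to 44620363), known as a metastasis suppressor in carcinomas, was at 189, 196 and 193 CPM in CD38 KO and 313, 303 and 308 CPM in WT (log2 fold change -0.68 ± 0.0381 SE; edgeR adjusted p = 4.82e-12). For both genes all libraries of one group lay on the same side of all libraries of the other. CD151, which binds laminin-binding integrins, was at 94.0, 113 and 100.2 CPM in CD38 KO and 108, 100.1 and 103 CPM in WT. Its log2 fold change was -0.02 with a 95% interval of -0.14 to 0.11 (edgeR adjusted p = 0.839). POLR2L overlaps 257 bases of the CD151 exons on the opposite strand and was called lower, at 82.8 CPM in CD38 KO and 98.3 CPM in WT. How much of the CD151 value comes from the shared bases cannot be told.

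CD81 (ENSG00000110651; chromosome 11, 2376177 to 2397419) was seen with 21, 20 and 4 counts in CD38 KO and 32, 13 and 21 in WT. These are 0.329, 0.336 and 0.0646 CPM in CD38 KO and 0.432, 0.196 and 0.320 CPM in WT, where the floor of 3 counts is 0.0405 to 0.0504 CPM and CD38 KO replicate 3 was near it. The groups overlapped, and the log2 fold change of -0.38 had a 95% interval of -1.52 to 0.76 (edgeR adjusted p = 0.613), so that a difference was not detectable at this depth. CR2, a complement receptor that associates with CD81 on B cells, was lower, at 19.4 ± 0.392 CPM in CD38 KO and 51.1 ± 2.97 CPM in WT (SD, n = 3; log2 fold change -1.40).

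CD63 (ENSG00000135404; chromosome 12, 55725323 to 55729707) stood at 340.2, 368 and 364 CPM in the CD38 KO libraries and at 483, 523 and 517 CPM in the WT libraries. The highest CD38 KO library was below the lowest WT library, and the CD38 KO mean was 70.4% of the WT mean (log2 fold change -0.51 ± 0.0417 SE; edgeR adjusted p = 2.11e-09). An exon of AC009779.2 on the opposite strand covers 237 bases of the CD63 exons and also fell, with 11.6 ± 1.40 CPM in CD38 KO and 26.2 ± 1.12 CPM in WT (SD, n = 3; log2 fold change -1.18). Whether the counting used strand is not stated, so reads of the shared bases cannot be told apart.

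Of the 6 TspanC8 members, TSPAN33, TSPAN14, TSPAN17 and TSPAN15 were called higher and 0 lower, where 22.8% of all tested genes were higher and 21.6% lower. That count is a description, since TSPAN15 passed the filter only through the CD38 KO libraries and TSPAN17 was called only under some settings. TSPAN33 (chromosome 7, 129144892 to 129169697), which is also found on activated B cells, was at 178, 177 and 168 CPM in CD38 KO and 89.4, 83.0 and 86.5 CPM in WT (log2 fold change 1.01 ± 0.0447 SE; edgeR adjusted p = 1.01e-13). TSPAN14 was at 30.4, 33.9 and 30.8 CPM in CD38 KO and 23.7, 23.8 and 21.3 CPM in WT (log2 fold change 0.47 ± 0.0721 SE; edgeR adjusted p = 1.65e-05). TSPAN17 was at 60.6, 55.7 and 56.0 CPM in CD38 KO and 54.1, 49.1 and 51.7 CPM in WT (log2 fold change 0.15 ± 0.0558 SE; edgeR adjusted p = 0.0303). The groups of all these genes did not overlap, but for TSPAN17 the gap was small.

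The call of TSPAN17 was lost in 6 of 17 alternatives, among them library size alone (edgeR adjusted p = 0.320), no filter on low counts (0.0772), without CD38 KO replicate 1 (0.126), without WT replicate 2 (0.147) and without WT replicate 3 (0.0881), in a range of 0.0177 to 1.00. TSPAN15 had 36, 38 and 28 counts in CD38 KO and 10, 2 and 6 in WT, which is 6.30 times as many per depth (counting interval 3.79 to 11.1 at 95%; log2 fold change 2.64 ± 0.524 SE; edgeR adjusted p = 0.000277). TSPAN5 was at 48.5 ± 1.86 CPM in CD38 KO and 46.95 ± 2.35 CPM in WT (SD, n = 3), with a 95% interval of the log2 fold change of -0.07 to 0.17. TSPAN10 had 22, 42 and 23 counts in CD38 KO and 33, 13 and 19 in WT, and its interval ran from -0.32 to 1.51. Its exons share 36 bases with NPLOC4 on the opposite strand, which was at 334.5 CPM in CD38 KO and 382 CPM in WT. Some of the few TSPAN10 counts may therefore be reads of NPLOC4. ADAM10 itself, named after its values were seen, was lower, at 166, 137 and 153 CPM in CD38 KO and 195, 176 and 204 CPM in WT (log2 fold change -0.34 ± 0.0675 SE; edgeR adjusted p = 0.00106).

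**Figure D2:**
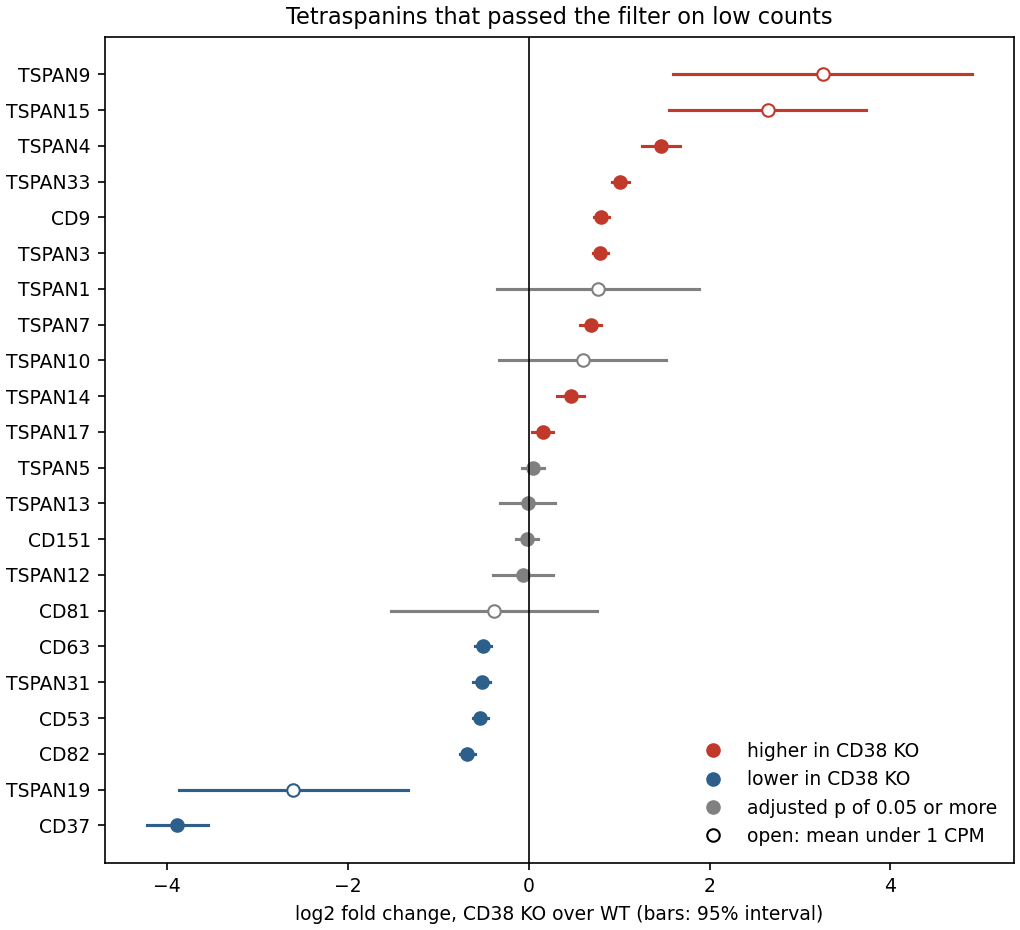
Log2 fold change, CD38 KO over WT, of the 22 tetraspanins that passed the filter on low counts, with 95% intervals from the edgeR fit; red and blue mark members called higher and lower, grey those not called, and open circles a mean under 1 CPM. The 9 higher members run from TSPAN17 at 0.15 to TSPAN9 at 3.25, and the 6 lower ones from CD63 at -0.51 to CD37 at -3.89.

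Of the other members at 1 CPM or more, TSPAN3, TSPAN7 and TSPAN4 rose, TSPAN31 fell and TSPAN12 and TSPAN13 were not called. TSPAN3 (chromosome 15, 77041404 to 77083984), a binding partner of claudin-11, was at 339, 355 and 341 CPM in CD38 KO and 195, 199.8 and 202 CPM in WT (log2 fold change 0.79 ± 0.0384 SE; edgeR adjusted p = 4.63e-13). TSPAN7, mutated in an X-linked form of intellectual disability, was at 77.2, 86.5 and 77.8 CPM in CD38 KO and 49.7, 50.2 and 50.4 CPM in WT (log2 fold change 0.68 ± 0.0535 SE; edgeR adjusted p = 9.83e-10). TSPAN4, which promotes the formation of migrasomes, vesicles left behind by migrating cells, was at 14.8, 15.4 and 14.5 CPM in CD38 KO and 5.32, 5.84 and 5.06 CPM in WT (log2 fold change 1.46 ± 0.1003 SE; edgeR adjusted p = 1.23e-10). No CD38 KO library of these genes came down to the highest WT library. TSPAN4 lies next to CD151 on chromosome 11, and both have the same tested neighbours, but CD151 was not called.

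TSPAN31 (chromosome 12, 57738013 to 57750211), a gene amplified in sarcomas together with CDK4, was at 67.4, 69.2 and 68.4 CPM in CD38 KO and 94.7, 99.3 and 100.3 CPM in WT (log2 fold change -0.52 ± 0.0462 SE; edgeR adjusted p = 6.95e-09). CDK4 overlaps 25.4% of the TSPAN31 exons on the opposite strand and also fell, with 82.1 ± 5.96 CPM in CD38 KO and 143 ± 1.72 CPM in WT (SD, n = 3; log2 fold change -0.80), so how much of either value comes from the other gene cannot be told. TSPAN12, which promotes Norrin signalling through FZD4, was at 4.53 ± 0.673 CPM in CD38 KO and 4.76 ± 0.928 CPM in WT (SD, n = 3), with a 95% interval of the log2 fold change of -0.40 to 0.26. TSPAN13 was at 3.78 ± 0.263 CPM in CD38 KO and 3.80 ± 0.118 CPM in WT (SD, n = 3), with an interval of -0.31 to 0.30.

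The 13 members under 1 CPM, among them TSPAN10, TSPAN15, TSPAN32 and CD81, reached at most 0.706 CPM in a CD38 KO library and 0.792 CPM in a WT library. TSPAN9, found on platelets, had 19, 16 and 11 counts in CD38 KO and 1, 4 and 0 in WT and was called higher, at 10.2 times as many per depth (counting interval 4.08 to 33.0; edgeR adjusted p = 0.00203). Its log2 fold change was 3.25, and 4.79 without WT replicate 2. TSPAN19 had 2, 2 and 14 counts in CD38 KO and 26, 44 and 52 in WT and was called lower, at 0.164 times as many per depth (counting interval 0.0940 to 0.270; edgeR adjusted p = 0.00151). Its log2 fold change was -2.61, and -4.13 without CD38 KO replicate 3. Each of this pair passed the filter only through the group where it was high. TSPAN1 had 29, 19 and 16 counts in CD38 KO and 8, 8 and 25 in WT and was not called (edgeR adjusted p = 0.269).

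Besides TSPAN32, 6 members did not pass the filter. TSPAN18, which acts with the calcium channel ORAI1 in endothelial cells, had 46 counts over the CD38 KO libraries and 17 over the WT libraries. Its exons share 74 bases with TP53I11 on the opposite strand, which was called higher, at 243 CPM in CD38 KO and 199 CPM in WT. TSPAN11 had 16 and 4, and TSPAN16 had 8 and 2, in CD38 KO and WT. TSPAN8 had 0 counts in the CD38 KO libraries and 4 in the WT libraries, whereas TSPAN2 and TSPAN6 had 2 each in CD38 KO and 0 in WT. No fold is given for these members, since they did not pass the filter. Apart from TSPAN18 and CD38 KO replicate 3 of TSPAN11, they were near or under 3 counts a library in both groups.

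Members on chromosomes 12 and 15 were set beside the tested genes around them, because these chromosomes had stood apart in earlier results of these data. For each member the median log2 fold change was taken over the tested genes that start within 5 Mb, other tetraspanins left out. Around CD63 the 175 neighbours had a median of -0.33, with 50.3% called lower and 9.14% higher, and around TSPAN31 the 161 neighbours had a median of -0.34, with 50.9% lower and 6.21% higher. Around TSPAN19 the 23 neighbours had a median of -0.48. At the other end of chromosome 12 the neighbours of CD9 and TSPAN9 went the other way, with medians of 0.36 over 162 genes and 0.48 over 117 genes. The neighbours of TSPAN3 on chromosome 15 had a median of 0.45 over 108 genes, with 55.6% higher and 4.63% lower.

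The other members called changed had neighbours with medians nearer to 0. These were 0.04 for CD37, 0.13 for CD53, 0.02 for CD82, 0.09 for TSPAN33, 0.00 for TSPAN4, -0.02 for TSPAN7, 0.12 for TSPAN14, 0.04 for TSPAN17 and -0.04 for TSPAN15. CD53 and TSPAN15 went against the sign of their neighbours' median, as did CD37, CD82 and TSPAN7. Over whole chromosomes the median was -0.11 for the 1081 tested genes of chromosome 12 and -0.04 for the 662 of chromosome 15. The part of the neighbourhood in the values of CD63, TSPAN31, TSPAN19, CD9, TSPAN9 and TSPAN3 was not tested.

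**Figure D3:**
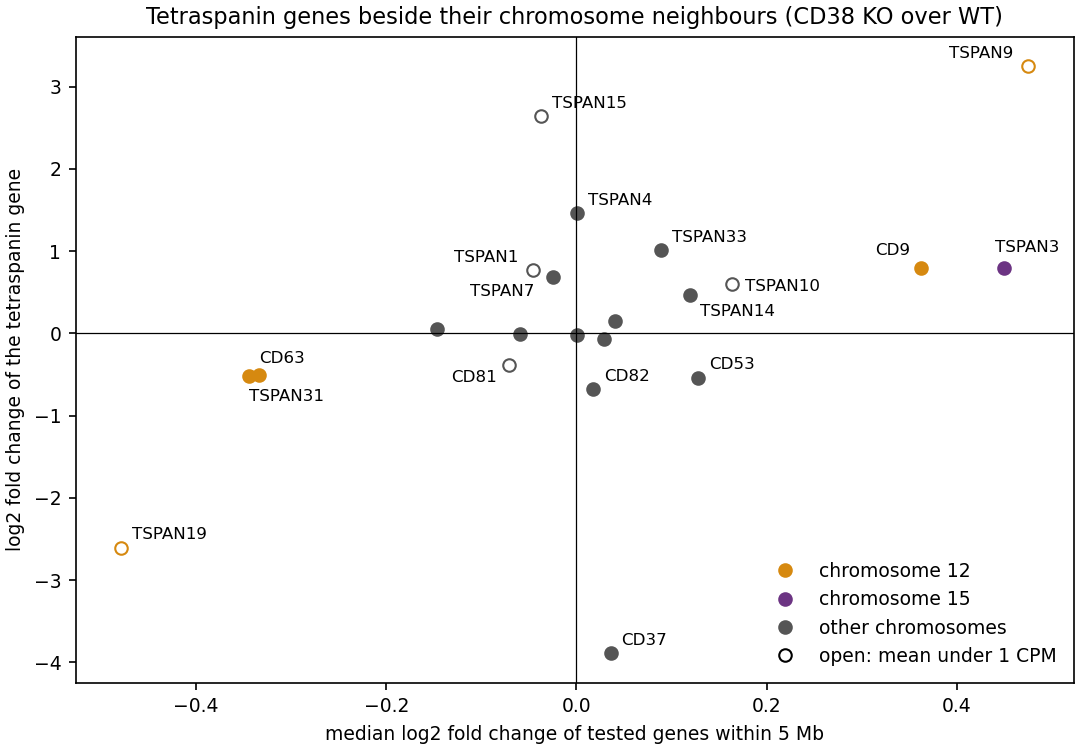
Log2 fold change (CD38 KO over WT) of each of the 22 tested tetraspanins against the median log2 fold change of the tested genes within 5 Mb of it; orange marks chromosome 12, purple chromosome 15 and open circles a mean under 1 CPM. CD63, TSPAN31 and TSPAN19 lie at medians of -0.33 to -0.48 and CD9, TSPAN3 and TSPAN9 at 0.36 to 0.48, while CD37, at -3.89, lies at 0.04.

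The summed CPM of the 29 members was close in the groups, while the sum per kb was lower in CD38 KO and the make-up of the family differed. The sum was 1964, 2063 and 1993 CPM in the CD38 KO libraries and 1994, 2019 and 2041 CPM in the WT libraries, which overlap. Per kb of exon it was 545, 575 and 556 in CD38 KO and 605, 615 and 622 in WT, which do not. The 7 members with CD names made up 58.6 ± 0.600% of the summed CPM in CD38 KO and 71.7 ± 0.308% in WT (SD, n = 3), and the 22 TSPAN-named members summed to 831 ± 19.7 CPM in CD38 KO and 571 ± 6.802 CPM in WT. Per kb, CD63 held 24.3% of the family's level in CD38 KO and 31.4% in WT, and CD53 held 20.6% and 27.2%. CD9 held 11.8% in CD38 KO and 6.17% in WT, and TSPAN33 held 11.3% and 5.11%. These shares move with the length correction. Of the summed CPM, CD63 held 17.8% in CD38 KO and 25.2% in WT, and CD53 held 12.3% and 17.8%. TSPAN3 held 17.2% and 9.87% of the summed CPM, but 7.26% and 3.815% per kb.

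**Figure D4:**
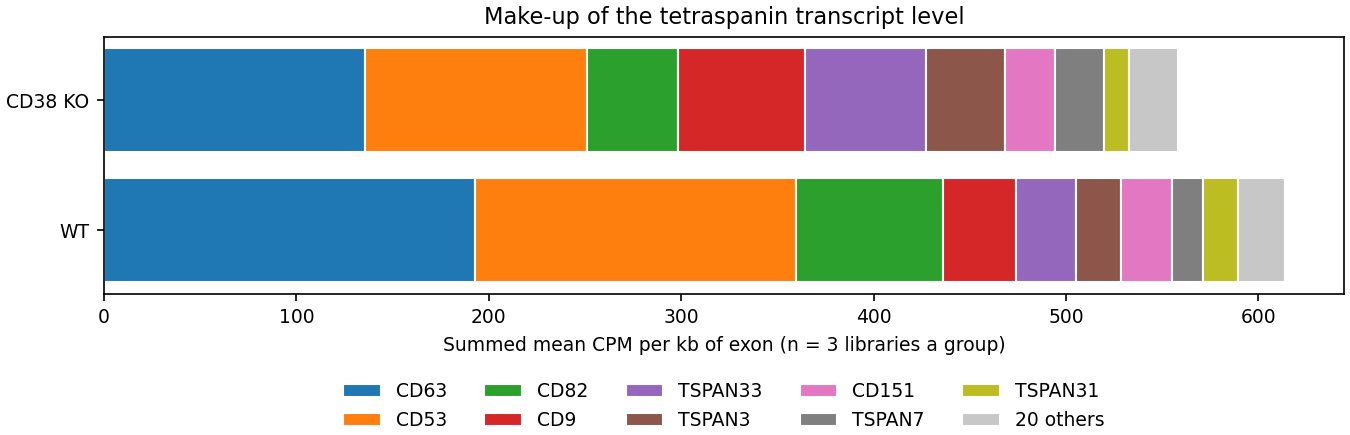
Mean CPM per kb of exon of the tetraspanins, stacked for CD38 KO (upper bar) and WT (lower bar), with a segment for each of the 9 members of the highest level and the other 20 together in light grey. The darker grey segment is TSPAN7. The bars reach 558 in CD38 KO and 614 in WT, and CD63, CD53 and CD82 take less of the CD38 KO bar while CD9, TSPAN33 and TSPAN3 take more.

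Known partners of tetraspanins changed in both directions. Of 38 partner genes, 30 were tested, and 12 rose, 8 fell and 10 were not called (median log2 fold change 0.11). The share called was 66.7%, beside 44.4% of all tested genes and 56.4% of the protein-coding ones. IGSF3, among the 12, passed the filter only through CD38 KO, with 26, 14 and 18 counts, against 1, 8 and 3 in WT. The counts and shares of this list are therefore a description. CLEC7A (dectin-1), a receptor for fungal glucan that CD37 binds on myeloid cells, was at 176 ± 9.66 CPM in CD38 KO and 37.8 ± 1.51 CPM in WT (SD, n = 3; log2 fold change 2.22; adjusted p of edgeR 3.13e-18). HBEGF, the growth factor precursor that CD9 binds, was at 10.7 ± 0.168 CPM in CD38 KO and 2.39 ± 0.353 CPM in WT (SD, n = 3; log2 fold change 2.17). PTPN6 (SHP-1), a phosphatase reported in complexes with CD37, and PRKCB, one of the protein kinases C that tetraspanins link to integrins, rose by log2 fold changes of 0.63 and 0.86. TIMP1, a protease inhibitor that binds CD63, rose by 0.53 on the log2 scale. The integrin subunit ITGB7 fell, with 16750 ± 480.5 CPM in CD38 KO and 21600 ± 911.6 CPM in WT (SD, n = 3; log2 fold change -0.37; adjusted p of edgeR 1.62e-08). CD44, an adhesion receptor, rose by a log2 fold change of 0.18, and HLA-DRA, at 621 ± 31.6 CPM in CD38 KO and 596 ± 5.26 CPM in WT (SD, n = 3), was not called. CLEC7A, PTPN6 and ITGB7 lie on chromosome 12, and ADAM10 and, from the lists below, RAB27A and AP3S2 on chromosome 15. The part of the neighbourhood in their values was not tested.

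Of 28 genes of extracellular vesicle formation and release, 27 were tested, and 7 rose, 3 fell and 17 were not called. The share called, 37.0%, was under the 44.4% of all genes. It was also under the 56.4% of protein-coding genes tested and the 61.0% of those at 1 CPM or more. SDCBP (syntenin), the adaptor that binds CD63, was at 214.5 ± 4.14 CPM in CD38 KO and 214.3 ± 6.32 CPM in WT (SD, n = 3; edgeR adjusted p = 0.983). FLOT2 and SDC1 were not called either (edgeR adjusted p = 0.850 and 0.488). The flotillin FLOT1 rose by a log2 fold change of 0.54, and the small GTPases RAB27A and RAB27B, which act in docking of multivesicular endosomes, rose by 0.24 and 2.11. RAB27B was at 3.04 ± 0.0569 CPM in CD38 KO and 0.700 ± 0.300 CPM in WT (SD, n = 3). SMPD3 and YKT6 rose by 0.25 and 0.22, and the ESCRT-III subunit CHMP4B fell by 0.37 on the log2 scale. UNC13D, among the 3 that fell, passed the filter through the WT libraries, with 30, 9 and 7 counts in CD38 KO and 43, 23 and 81 in WT. The counts of this list are likewise a description.

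Of 15 genes of the lysosome membrane and of the AP-3 adaptor, which sorts CD63 to lysosomes, 14 were tested, and 4 rose, 6 fell and 4 were not called (median log2 fold change 0.00). The share called was 71.4%, beside 44.4% of all tested genes and 61.0% of protein-coding genes at 1 CPM or more. The lysosomal channel MCOLN1 and the AP-3 subunit AP3S1 had the largest falls, with log2 fold changes of -0.62 and -0.64. MCOLN1 was at 50.02 ± 2.54 CPM in CD38 KO and 76.8 ± 2.23 CPM in WT (SD, n = 3). AP3S2, the other small subunit, was higher, at 18.7 ± 1.36 CPM in CD38 KO and 10.6 ± 0.837 CPM in WT (SD, n = 3; log2 fold change 0.82). The lysosomal membrane proteins LAMP2 and LAMP3 fell by 0.17 and 0.40 on the log2 scale, as did AP3M1 by 0.23, while SCARB2 and the cholesterol transporter NPC1 rose by 0.21 and 0.32. AP3D1 was not called (edgeR adjusted p = 0.0782), but it was called higher without WT replicate 1 (edgeR adjusted p = 0.00598) and with a filter of at least 1 CPM in 3 libraries (edgeR adjusted p = 0.0436). Of the 4 genes of the tetraspanin superfamily that the rule leaves out, UPK1A, UPK1B and PRPH2 did not pass the filter, with at most 0.138 CPM as a group mean. ROM1, known from photoreceptor discs, was at 4.85 ± 0.0741 CPM in CD38 KO and 3.93 ± 0.650 CPM in WT (SD, n = 3; edgeR adjusted p = 0.106, and 0.0413 without WT replicate 2).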

How the data were processed

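The values are raw read counts per gene in 1 table, as the authors deposited them, with 1 column per library matched to its sample by title. STAR 2.7.9a, Partek and DESeq2 are listed, with no roles, per the submitters' processing notes. Build, annotation, counting program and strand setting were not given in the sources used here. The library kit was SMARTer Ultra Low with an input of 10 ng RNA, per the labels' protocols. The members and gene lists were chosen with earlier results of these data known, so a pattern among them has no independent support.

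Each Ensembl identifier was kept once, since 200 of the 60871 lines were repeats with the same counts. Chromosomes, exon lengths and overlaps came from GENCODE 29 (GRCh38), which may not be the annotation counted with. The groups were compared with edgeR 4.0.16 in R 4.3.3 (TMM, filterByExpr, robust dispersions, quasi-likelihood test, no covariate), with Benjamini-Hochberg adjustment over all 20120 tested genes. Standard errors are the size of the log2 fold change divided by the root of the F statistic. No libraries looked like duplicates (chi-square per degree of freedom at least 5.96 in each pair). Alternatives used DESeq2 1.42.0, limma-voom (limma 3.58.1), other scalings and filters, a replicate block and each library left out. The procedure was run on simulated counts with 1 dispersion for all genes and changes only in genes at 1 CPM or more. That run does not bear on the calls of members under 1 CPM. Counting intervals, at 95%, are exact binomial ones, and they and the floor of 3 counts reflect counting error alone, since these reads carry no molecular identifiers. The named genes are CD38, every member, and from each list up to 6 genes with the smallest adjusted p and up to 3 with the highest mean CPM. Members under 1 CPM are given by counts. The 5 Mb window was set during the analysis. Other listed genes enter only the counts, apart from ADAM10 and from IGSF3 and UNC13D, which are named because of the filter.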

Additional observations from a re-analysis of the deposited data

How the results depend on the processing

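Over 17 alternatives the called tetraspanins kept their direction, and those other than TSPAN17 kept their call, except against a 2-fold change or where a filter at 1 CPM in 3 libraries removed TSPAN9, TSPAN15 and TSPAN19 from the test. Against a 2-fold change edgeR called 1061 genes, 556 higher and 505 lower, and 3 members higher (TSPAN4, TSPAN9, TSPAN15) and 2 lower (CD37, TSPAN19). In the other alternatives 7 to 9 members were called higher and 5 or 6 lower. Leaving out 1 library gave 8 or 9 members higher, 6 lower and 7767 to 8761 genes changed. Without CD38 KO replicate 1 the count higher stayed at 9 though TSPAN17 lost its call, so it included a member not called higher above. With the replicate number as a block 8918 genes were called, with 9 members higher and 6 lower. The numbers did not pair the libraries: in same-numbered libraries the deviations from the group means correlated at 0.0337, -0.00800 and -0.0207, and CD38 KO replicates 2 and 3 correlated best with another number.

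Values that changed sign were all of genes not called. Without single libraries TSPAN12 lay between -0.182 and 0.0944 (0.0373 without CD38 KO replicate 2), TSPAN13 between -0.0445 and 0.0475, CD151 between -0.0952 and 0.0445 and CD81 between -0.676 and 0.0759. With library size alone TSPAN5 was at -0.0352, HLA-DRA at -0.0238, SDC1 at -0.0470, FLOT2 at -0.0714 and SDCBP at -0.0818. SDCBP was at -0.00403 with RLE factors, -0.0136 with upper-quartile factors, -0.0150 with no filter, -0.00400 with DESeq2, -0.00454 with protein-coding genes only and -0.000181 with scaling without chromosomes 12, 13 and 15, and FLOT2 at -0.00244 with upper-quartile factors and -0.00449 with no filter. Without single libraries SDCBP lay between -0.0136 and 0.0253, FLOT2 between -0.0253 and 0.0419 and SDC1 between -0.00443 and 0.0644. The causes were not tested. Depth limits the members under 1 CPM, where a few counts set the fold.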
